A study of Mus musculus with 4 samples.

Results

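The replication-dependent histone genes encode the linker histone H1 and the core histones H2A, H2B, H3 and H4, which package DNA into nucleosomes. They were chosen by symbol from the gene list of the deposited matrices: H1f1 to H1f5, and every symbol that begins with H2ac, H2bc, H3c or H4c followed by a number. Of 55357 genes, 65 symbols matched, and 57 of them were measured, which means that they had at least 20 unique molecular identifiers (UMIs, counted RNA molecules) over the 4 libraries. The measured members were 5 of 5 H1 genes, 15 of 19 H2A genes, 15 of 17 H2B genes, 10 of 12 H3 genes and 12 of 12 H4 genes. H4c6 with 26 UMIs and H2ac23 with 27 UMIs lay just above the threshold, and H2ac19 with 16 UMIs lay just under it. H2ac12 and H3c10 had 7 UMIs each, H2bc23 had 5, and H2ac1, H2ac14, H2bc1 and H3c14 had 0. One of the matches, H2ac5-ps, is a pseudogene by its name.

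Single cells came from the ipsilateral brain hemisphere of wild type mice with ischemic stroke. Hydrogel microspheres (MAPS) had been placed in the infarct cavity on day 5 after stroke, and tissue was taken on day 14. There was 1 library in each of 4 groups. The first received MAPS alone, and the others received MAPS that carried astrocyte-derived extracellular vesicles (EV): UT EV+MAPS in the second group, IL-1a TNFa C1q EV+MAPS in the third, with IL-4 C1q EV+MAPS in the last; UT is not spelled out in the labels. All 4 groups had the stroke and the microspheres, and no group without them was analysed here. Strain, age, sex and the number of animals behind a library were not given in the labels, and dead cells were removed with beads before loading. With 1 library in a group, the treatment and the library cannot be told apart. Values for the libraries are given in that order throughout, and intervals are exact 95% intervals that cover counting error only.

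The MAPS library stood apart from the 3 EV libraries before any histone was considered. After filters it held 13101 cells with a median of 4465 UMIs, against 12301 to 14218 cells with medians of 2422 to 2633 UMIs in the EV libraries. Its median share of mitochondrial UMIs was 1.4%, against 0.552% to 0.577%. In its microglia the ribosomal RNA gene Rn18s-rs5 stood at 2125 CPM, against 18723 to 27001 in the EV libraries. CPM means UMIs of the gene in every 1000000 UMIs of the cells summed. The 407 genes with symbols that begin with Rps or Rpl and a number summed to 84905 CPM against 145866 to 151055. These were taken by symbol alone, as for ribosomal protein genes, and can include pseudogenes and other genes. Any 2 libraries shared 43 to 64 cell barcodes.

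Histone synthesis is tied to DNA replication: transcription of these genes rises as cells enter S phase, when new DNA has to be wrapped. Their mRNAs are known for ending in a conserved stem-loop in place of a poly(A) tail; the stem-loop binding protein, encoded by Slbp, directs their processing and translation, and the mRNAs are degraded when replication ends. The 3′ assay used here primes on runs of A, so the levels describe those histone RNAs that an oligo-dT primer could catch.

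The stem-loop letters were read from the GENCODE vM21 transcripts, to show what the RNAs share and where the annotated transcripts go on past it. A run of 16 bases made of the stem arm GGNNCT, the loop TTTN and the stem arm AGNGCC, with any letter at N and searched on the transcript strand only, was present in 35 of the 57 measured members (61.4%), against 52 of 55450 genes with a transcript (0.0938%). Only 5 distinct versions occurred among the members. In the lines that follow, capitals mark the 4-base loop; the first version was in 21 members, the second in 6 H4 genes, the third in 5 members, the fourth in 2 H4 genes and the last in H2ac20.
H2ac24, H1f2, H1f4 and others: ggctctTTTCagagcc
H4c4, H4c8, H4c3 and others: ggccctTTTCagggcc
H3c6, H2bc3 and others: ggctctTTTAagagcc
H4c9 and H4c14: ggccctTTTTagggcc
H2ac20: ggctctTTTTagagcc
The annotated transcript of H2ac24 ended 3 bases after the stem-loop, while that of H1f2 ran on for 840 bases, H1f4 for 1153 bases and H2ac6 for 2010 bases. The annotated transcripts of H2bc4, H1f5 and H2bc21 did not hold these letters. Some annotated transcripts without them were short, such as H2bc15 at 381 bases and H4c12 at 312 bases. Such transcripts may stop before the stem-loop, so the share with the letters describes the annotation.

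Because the assay primes on A, the longest run of A was also read from each transcript, and 3 stretches of 30 bases are shown with the run in capitals. The run in H2ac24 was 12 bases long and lay next to the stem-loop, that in H2ac6 was 15 bases long, and that in H2bc4 was 8 bases long.
H2ac24: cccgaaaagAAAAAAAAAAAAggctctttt
H2ac6: ctaggagAAAAAAAAAAAAAAAgttctatg
H2bc4: tcatgtaaagcAAAAAAAAtgcgtcatgtt

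Histone genes lie in clusters and resemble each other. Of the 57 measured members, 48 lay on chromosome 13 and 8 on chromosome 3. More than 50% of the 50-base stretches of the transcript were shared with another gene in 28 members. H2ac24 shared 93.1% of them, mostly with H2ac23, and H2ac18 shared 89.4%. H1f5, H1f1 and H2bc21 shared none. How reads that match several copies were counted is not given in the sources used here, so the counts of near-identical members are uncertain between copies.

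Promoter letters were available for 50 members from RefSeq (GRCm38.p6), as the 250 bases before the start site. They are shown for 3 members: H1f5, with the largest difference between cycling states among the members described singly, H1f2, another H1 gene with little difference, and H2bc3, an H2B gene with all 3 motifs. Capitals mark CCAAT on either strand, TATAAA and the octamer ATTTGCAT; the minus or plus sign is the gene's strand.
H1f5, chr13:21780626-21780875, minus strand: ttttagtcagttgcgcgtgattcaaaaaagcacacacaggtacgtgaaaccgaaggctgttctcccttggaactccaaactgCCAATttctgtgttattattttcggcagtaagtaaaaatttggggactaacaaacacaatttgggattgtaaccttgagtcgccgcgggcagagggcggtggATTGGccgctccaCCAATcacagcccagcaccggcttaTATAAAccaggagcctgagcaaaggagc
H1f2, chr13:23738557-23738806, plus strand: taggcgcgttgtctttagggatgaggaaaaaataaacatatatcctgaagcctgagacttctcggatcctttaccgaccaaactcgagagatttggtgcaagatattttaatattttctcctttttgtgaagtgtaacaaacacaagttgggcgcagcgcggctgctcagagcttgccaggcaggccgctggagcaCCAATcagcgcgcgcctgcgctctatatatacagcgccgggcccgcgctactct
H2bc3, chr13:23746484-23746733, plus strand: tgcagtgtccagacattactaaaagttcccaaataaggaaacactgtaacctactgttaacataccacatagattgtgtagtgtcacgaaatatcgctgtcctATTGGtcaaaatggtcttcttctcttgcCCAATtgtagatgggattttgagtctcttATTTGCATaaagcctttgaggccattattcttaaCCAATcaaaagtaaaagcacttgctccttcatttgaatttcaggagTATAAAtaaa
Searched on both strands, CCAAT was present in 41 of 50 members (82.0%), against 33.8% of all 32851 promoters of the same length. TATAAA was present in 25 of 50 (50%) against 12.4%. The octamer was present in 9 of 50 (18.0%) against 1.60%, in 4 H2A and 5 H2B genes. CCAAT was present in 14 of 14 H2A and 12 of 12 H2B promoters but in 3 of 11 H4 promoters. No motif lies within another, and these matches describe the letters and say nothing of binding.

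The histone genes were far more abundant in cycling cells than in non-cycling cells of the same library. A cell was called cycling when it held a UMI of at least 3 of 18 G2M genes or at least 5 of 18 S phase genes, and non-cycling when it held at most 1 and at most 2 of them. No histone gene is in either list. The libraries held 591, 189, 226 and 179 cycling cells, and the summed members stood there at 3166, 10470, 10335 and 9328 CPM. In non-cycling cells the sums were 512, 1365, 1356 and 1462 CPM. The ratio was therefore 6.18, 7.67, 7.62 and 6.38, and the levels of the states did not overlap within or between libraries.

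In edgeR's quasi-likelihood test with Benjamini-Hochberg adjustment, fitted over all genes with the library as a block, 47 of 53 tested members were higher in cycling cells and 1 was lower. Over all 17145 genes tested, 15.5% were higher and 17.6% lower. The median log2 difference of the tested members was 3.13, against -0.08 over all genes. A filter on low counts kept 53 of the 57 measured members; with no filter, 48 of 57 were higher. Cycling cells were also deeper, with medians of 9961, 7343, 5998.5 and 5776 UMIs against 4199, 2590, 2486 and 2385, and the part of depth in the result was not tested.

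**Figure D1:**
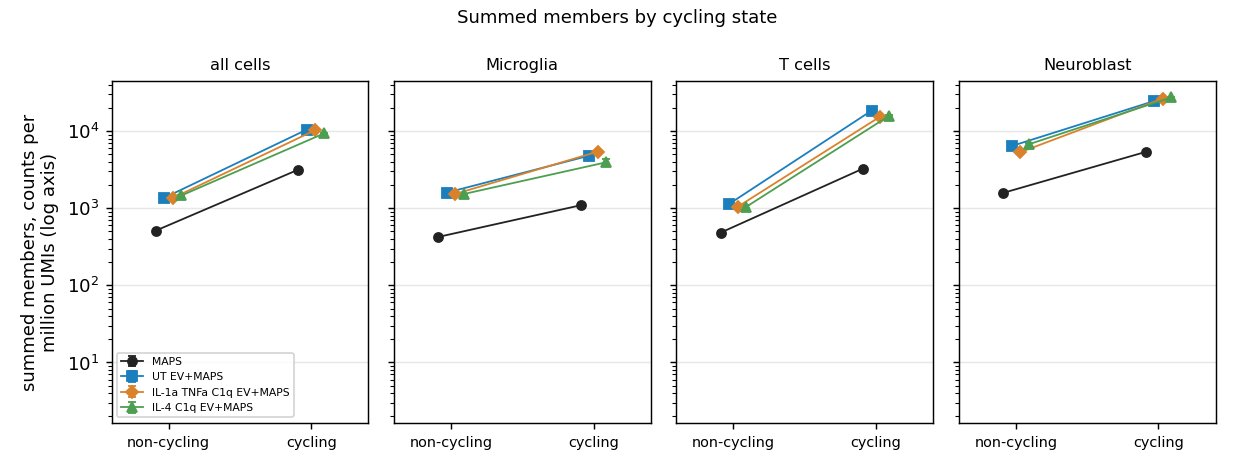
Summed members in non-cycling and cycling cells (log axis, CPM), for all cells, microglia, T cells and neuroblasts. Each point is 1 library with its exact 95% counting interval and lines join the states of a library; cycling cells lie higher in every library, and the MAPS library lies lowest in both states of each panel.

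The H1 genes, whose products bind the linker DNA between nucleosomes, ranged from H1f5, with a large difference between the states, to H1f2, which was not called. H1f5 stood at 1.65, 7.38, 7.60 and 5.80 CPM in non-cycling cells and at 99.0, 763, 734 and 770 CPM in cycling cells. Its ratio of 59.9, 103, 96.7 and 133 gave a fitted log2 difference of 6.53 ± 0.20 (SE; adjusted p = 6.8e-08, edgeR's quasi-likelihood test with Benjamini-Hochberg adjustment), the largest of the 20 members described singly. H1f4 stood at 16.3, 164, 170 and 182 CPM in non-cycling and 82.5, 616, 588 and 716 CPM in cycling cells, and rose by 1.95 ± 0.14 on the log2 scale. H1f3 rose by 2.72 ± 0.18.

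H1f2 showed no such step. It stood at 159, 99.4, 110 and 131 CPM in non-cycling cells and 164, 138, 134 and 180 CPM in cycling cells, and its log2 difference of 0.27 ± 0.12 did not pass the test (adjusted p = 0.131, edgeR with Benjamini-Hochberg adjustment). The cycling level of each library lay above its own non-cycling level, but the ranges over the libraries overlapped. In all, 4 of 5 H1 genes were called higher.

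The H2A genes, which encode a core histone of the nucleosome, had the highest median difference of the 5 families, a log2 value of 4.59, and 12 of 13 tested were higher. H2ac24 went from 57.5, 129, 148 and 121 CPM in non-cycling cells to 2052, 5266, 5652 and 4204 CPM in cycling cells, a ratio of 35.7, 40.7, 38.3 and 34.8. H2ac8 went from 4.78, 32.8, 29.9 and 27.5 CPM to 155, 1277, 977 and 849 CPM. The ratios of these 2 genes were thus alike in the 4 libraries, although their levels in the MAPS library were lower in both states. H2ac20 rose by 2.55 ± 0.18 and H2ac6 by 1.84 ± 0.20 on the log2 scale. H2ac18 did not pass, with 29.4, 28.5, 41.9 and 43.0 CPM in non-cycling cells, 34.0, 31.2, 44.5 and 46.1 CPM in cycling cells and a log2 difference of 0.086 ± 0.13.

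The H2B genes encode the partner of H2A, and 13 of 15 were higher, with a median log2 difference of 3.70. H2bc3 rose from 1.11, 4.09, 3.93 and 3.96 CPM to 20.5, 87.1, 89.0 and 80.7 CPM. H2bc11 rose by 4.34 ± 0.21 and H2bc6 by 1.0 ± 0.19 on the log2 scale. H2bc4, the member with the most UMIs, went the other way. It stood at 133, 543, 515 and 606 CPM in non-cycling cells and at 135, 243, 304 and 352 CPM in cycling cells, so it was lower in cycling cells of the 3 EV libraries and level in the MAPS library (ratio 1.02, interval 0.949 to 1.09). Its fitted log2 difference was -0.72 ± 0.18 (adjusted p = 0.0134, edgeR's quasi-likelihood test with Benjamini-Hochberg adjustment). Without the IL-4 C1q EV+MAPS library it was -0.65 and no longer passed (adjusted p = 0.0647), and without the MAPS library it was -0.89.

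Of the H3 genes, 9 of 10 were higher. H3c6 went from 1.69, 27.0, 20.6 and 20.0 CPM to 16.5, 154, 134 and 148 CPM, while H3c4 went from 8.48, 8.09, 8.86 and 8.16 CPM to 15.1, 15.6, 22.3 and 23.1 CPM. The H4 genes had the lowest median log2 difference of the families, 1.47, and 9 of 10 tested were higher. H4c4 stood at 9.90, 102, 76.6 and 90.6 CPM in non-cycling cells and 31.7, 339, 272 and 430 CPM in cycling cells. H4c8 rose by 1.17 ± 0.13, H4c9 by 1.41 ± 0.13 and H4c3 by 1.19 ± 0.25 on the log2 scale. The remaining members that did not pass in either direction were H2bc21, at 1.04 (adjusted p = 0.0544), H3c15 and H4c14.

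**Figure D2:**
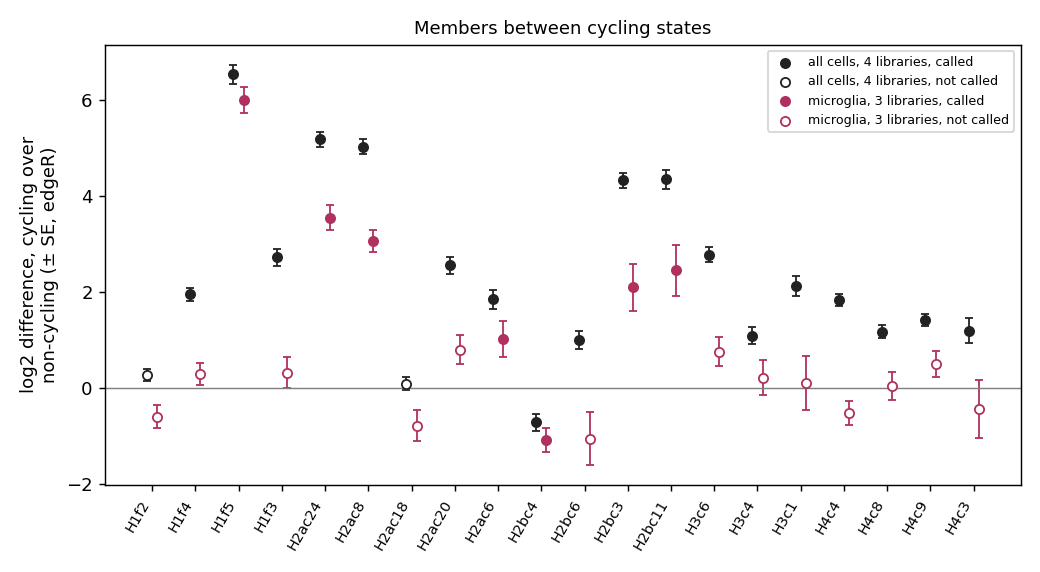
Log2 difference between cycling and non-cycling cells (± SE, edgeR) for the 20 members with the most UMIs, ordered by family. Black points are all cells of 4 libraries and red points microglia of 3 libraries; filled points passed an adjusted p of 0.05, and H2bc4 is the member called lower in both.

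Histone genes outside the symbol rule were compared with them. These variants are made throughout the cell cycle or have roles of their own, and 9 of 12 were higher in cycling cells, against 15.5% of all genes tested. H3f3b, which encodes the replacement variant of H3, had a log2 difference of 0.27 and was not called, and H3f3a, the other gene for that protein, rose by 1.03. H2az1 rose by 2.79 and H2az2 by 2.66, both encoding the variant H2A.Z, while H2aj had a value of -0.19 and was not called. These values are from all cells, which mix classes. In single classes, 6 of 12 variants were higher in microglia (8.04% of genes), 5 of 10 in T cells (7.77%) and 9 of 11 in neuroblasts (20.9%). H3f3a was not among the higher genes in any of these classes, and it was lower in neuroblasts (24.2%). Among 16 tested genes for histone gene transcription and 3′ end processing, 9 were higher (15.5% of all genes) and 1, Tut7, was lower (17.6%). Within single classes, in the fits described next, 1 of 16 was higher in microglia (8.04% of genes), 3 of 14 in T cells (7.77%) and 3 of 8 in neuroblasts (20.9%). In microglia 2 were lower (9.67%), and in neuroblasts 1 was (24.2%). The differences that follow are those of all cells. Slbp rose by 1.5, and Casp8ap2, which encodes a protein of the histone locus body, rose by 1.05. Npat, whose product activates histone genes, had a value of -0.035 and was not called. E2f1, a transcription factor of S phase entry, rose by 3.18, Eri1, an exonuclease that trims histone mRNA, by 1.23 and Lsm11, part of the processing particle, by 1.14. Among RNAs known to lack a tail or to end unusually, Malat1 fell by 1.28 and Neat1 fell by 0.58, and Rpph1 and Rny3 were tested and not called.

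Cycling and non-cycling cells differ in cell class, so the comparison was repeated within classes gated on 6 markers each. Of the cycling cells, 217, 40, 40 and 47 were neuroblasts, 138, 13, 52 and 25 T cells and 107, 30, 23 and 11 microglia. In T cells the summed members stood at 482, 1137, 1044 and 1044 CPM in non-cycling and at 3270, 18483, 15448 and 15693 CPM in cycling cells. There 23 of 27 tested members were higher, against 7.77% of all genes tested. In neuroblasts the sums were 1578, 6395, 5312 and 6739 CPM in non-cycling and 5367, 24531, 26425 and 27321 CPM in cycling cells. In these 14 of 17 tested members were higher, against 20.9% of genes, and 1 lower, against 24.2%; the lower one was H2bc4, at -0.84 ± 0.13.

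In microglia the step between the called states was smaller. The summed members stood at 424, 1591, 1531 and 1528 CPM in non-cycling and at 1093, 4802, 5423 and 3944 CPM in cycling microglia, a ratio of 2.58, 3.02, 3.54 and 2.58. The fit left out the IL-4 C1q EV+MAPS library, which had 11 cycling microglia, under the minimum of 20. In it 13 of 35 tested members were higher, against 8.04% of 12455 genes, and 1, H2bc4, was lower, against 9.67%; with no filter, 18 of 57 were higher and 2 lower. H1f5 rose by 5.99 ± 0.26, H2ac24 by 3.55 ± 0.27, H2ac8 by 3.05 ± 0.23 and H2bc3 by 2.09 ± 0.49 on the log2 scale. H2ac6 rose by 1.02 (adjusted p = 0.0453, edgeR with Benjamini-Hochberg adjustment), and had a value of -0.22 without the MAPS library. The 6 tested H4 genes had log2 differences of -0.52 to 1.0. H2bc4 stood at -1.08 ± 0.24, and its call was lost without the UT EV+MAPS library (-0.92, adjusted p = 0.0865, edgeR) or without the IL-1a TNFa C1q EV+MAPS library (-0.89, adjusted p = 0.220). The size of the step was not tested between classes. Cycling microglia were deeper, with medians of 12212, 9984.5, 8221 and 10171 UMIs against 4466, 2751.5, 2416 and 2498.5. With the gate read on cells thinned to an equal depth, 19, 11, 11 and 3 of the microglia were called cycling. In neuroblasts 132, 32, 26 and 30 were, and in T cells 60, 4, 23 and 18. The part of depth in the smaller step was not tested.

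The members were highest in cells that held genes of both cell cycle lists. Cells that met the S and the G2M threshold together numbered 273, 76, 89 and 65, and in them the summed members stood at 5264, 17306, 13344 and 13113 CPM. Cells that met only the G2M threshold stood at 1443, 6237, 11882 and 9633 CPM. Cells that met only the S threshold stood at 729, 1096, 1317 and 1701 CPM, against 512, 1365, 1356 and 1462 CPM in non-cycling cells. H1f5 followed the same order, with 179, 1259, 1064 and 1164 CPM under both lists, 24.2, 467, 685 and 704 CPM under the G2M list only and 9.12, 68.8, 78.3 and 99.0 CPM under the S list only. Slbp was highest under both lists too, at 302, 181, 148 and 171 CPM, and stood at 52.6, 46.3, 64.4 and 48.1 CPM under the G2M list only. H2bc4 ran opposite, with its lowest level under both lists in each library, 105, 172, 221 and 201 CPM.

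**Figure D3:**
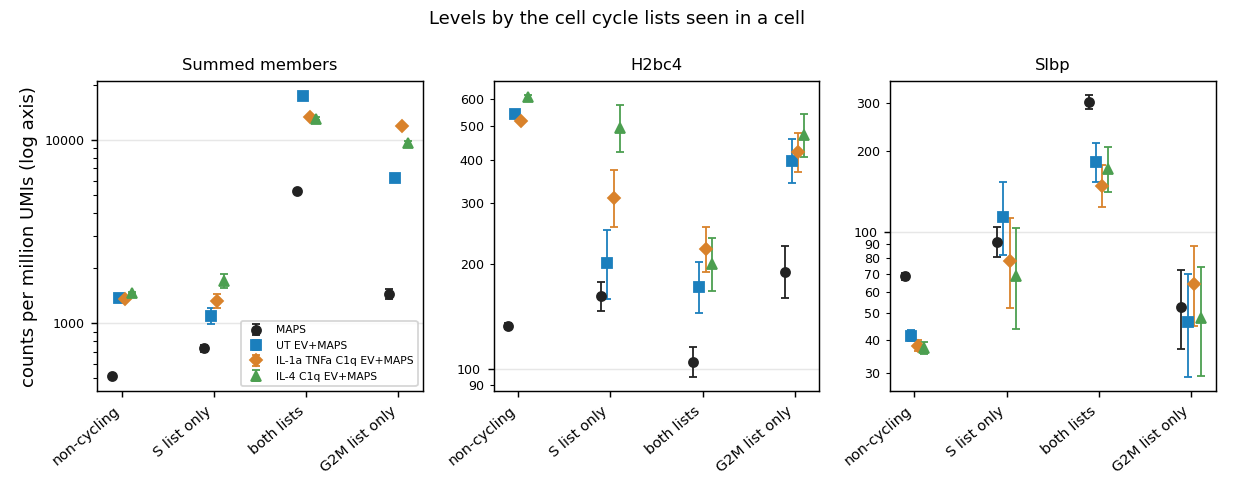
Level (log axes, CPM) of the summed members, H2bc4 and Slbp in cells grouped by which cell cycle list passed its threshold. Each point is 1 library with its exact 95% counting interval; the sum and Slbp are highest where both lists passed, and H2bc4 is lowest there.

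When cycling cells were divided into those with more S than G2M genes seen (S-like) and the reverse (G2M-like), the members lay higher in the G2M-like cells. The sum in S-like cells was 0.36, 0.42, 0.30 and 0.44 of that in G2M-like cells. Of 32 tested members, 24 were lower in S-like cells, against 3.74% of 7240 genes, and 0 were higher, against 1.85%, in edgeR's quasi-likelihood test with Benjamini-Hochberg adjustment. At an unadjusted p under 0.05 edgeR gave 0 higher, and DESeq2 called 0 higher and 23 lower. H2bc3 fell by 2.31 ± 0.24, H4c4 by 1.93 ± 0.15 and H2ac8 by 1.83 ± 0.13 on the log2 scale, while H2ac18 stood at 0.11 ± 0.28 and was not called. When the gate was read on cells thinned to 1000 UMIs, 1 of 38 members was lower; only 67, 7, 8 and 6 cells were then S-like, against 331, 82, 83 and 67. The phase is a count of listed genes seen in a cell, which grows with the cell's depth. S-like cells include all those that met only the S threshold, with sums of 729, 1096, 1317 and 1701 CPM, and these need not be in S phase. The lower calls were lost when the fit had no replicate block.

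Non-cycling cells also differed by class. In each library the summed members were highest in neuroblasts, at 1578, 6395, 5312 and 6739 CPM, and next in ependymal cells, at 1575, 3228, 3696 and 3727 CPM. The neuroblast and ependymal levels differed by less than the counting interval in the MAPS library. The gate counts genes seen, so a shallow cycling cell can be counted as non-cycling. Non-cycling neuroblasts had medians of 1499, 2042.5, 1741.5 and 1749 UMIs, against 9349, 4803, 3767 and 4628 in cycling neuroblasts. The part of missed cycling cells in the neuroblast level was not tested. Choroid plexus cells followed, at 1207, 2041, 2260 and 2100 CPM, though B cells lay above them in IL-4 C1q EV+MAPS (2335 CPM). B cells, astrocytes, natural killer (NK) cells, oligodendrocytes and microglia overlapped one another over the libraries, and T cells (482, 1137, 1044 and 1044 CPM) and endothelial cells (452, 936, 968 and 1158 CPM) lay lowest among the EV libraries. Over all non-cycling cells H2bc4 alone stood at 133, 543, 515 and 606 CPM, of 512, 1365, 1356 and 1462 CPM for the sum. Its level differed by class, as given below, so the sums depend in part on that single gene. The order of the classes without H2bc4 is not given here.

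**Figure D4:**
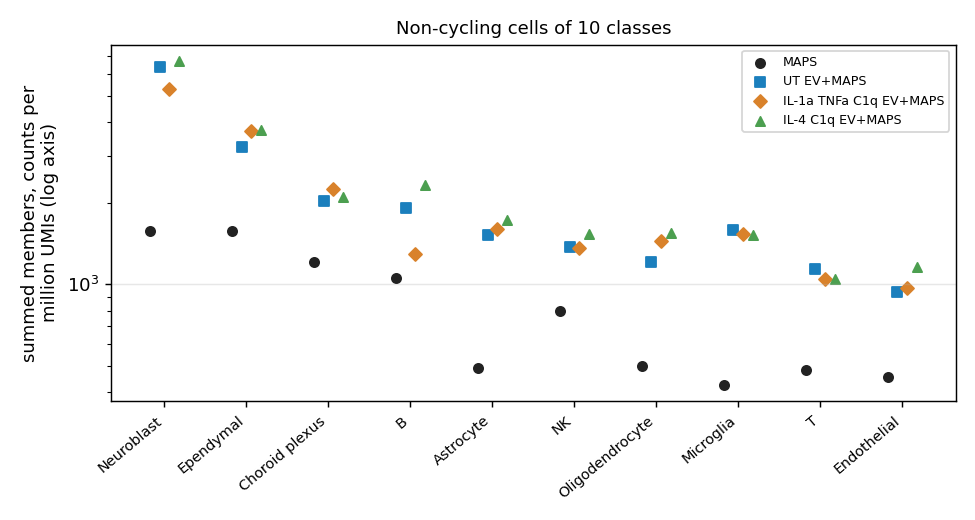
Summed members in non-cycling cells of the 10 classes with at least 50 cells in every library (log axis, CPM), ordered by mean rank over libraries. Each point is 1 library; neuroblasts lie highest in each library, and the MAPS library lies lowest in every class.

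Each class was tested against the mean of the others with the library as a block, over 40 members and 13725 genes, cycling cells included. In neuroblasts 35 of 40 members were higher (32.5% of genes) and 1 was lower (27.1%). In T cells 27 were higher (31.9%) and 3 lower (20.4%), and in B cells 26 were higher (14.3%) and 2 lower (18.5%). In NK cells 16 were higher (14.5%) and 3 lower (17.4%). The brain's other cells ran the other way: 31 were lower in oligodendrocytes (27.9%) and 1 higher (32.2%), 22 were lower in astrocytes (26.5%) and 4 higher (35.1%), and 32 were lower in endothelial cells (21.1%). Microglia had 11 higher (37.2%) and 6 lower (21.8%), ependymal cells 11 higher (33.6%) and 19 lower (27.0%), and choroid plexus cells 7 higher (30.7%) and 11 lower (28.2%).

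The test was repeated with non-cycling cells alone, over 31 members and 13502 genes. Microglia then had 18 members higher (37.9% of genes) and 3 lower (19.9%). Their higher members included H2ac24, H2ac8 and H2bc3, which were not called with cycling cells included, and H1f5 went from lower to not called. In T cells 15 were higher (30.7%) and 5 lower (19.2%), in B cells 14 were higher (13.5%) and 1 lower (15.7%), and in NK cells 8 were higher (14.0%) and 2 lower (15.1%). Oligodendrocytes had 22 lower (25.6%) and 3 higher (33.2%), astrocytes 16 lower (25.5%) and 3 higher (35.0%), and endothelial cells 24 lower (18.7%). Ependymal cells had 9 higher (31.4%) and 11 lower (24.3%), and choroid plexus cells 8 higher (30.1%) and 5 lower (26.7%). In neuroblasts, immature cells of the neuronal lineage, 23 of 31 members were higher (28.9%) and 1 was lower (25.4%). H1f5 stood 4.02 ± 0.27 above the mean of the other classes on the log2 scale, H2ac24 3.61 ± 0.15 and H1f4 2.45 ± 0.15. Ependymal cells, the ciliated lining of the ventricles, had another set on top. There H4c8 stood 3.29 ± 0.18, H4c9 2.71 ± 0.17 and H2ac18 2.01 ± 0.12 above the mean of the other classes, while H1f4 fell by 1.67 and H2ac24 fell by 1.63. H2bc4 was 1.52 ± 0.13 above the mean of the other classes in ependymal cells, 2.26 above it in choroid plexus cells and at -2.36 in T cells.

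Between libraries the MAPS library held the lowest histone levels. Over all cells the summed members stood at 773, 1711, 1686 and 1709 CPM, and in microglia, the most numerous class with 6929, 4878, 5487 and 5222 cells, at 444, 1644, 1569 and 1539 CPM. The microglial sum in the MAPS library was 0.27 (0.265 to 0.275) of that in UT EV+MAPS, 0.283 (0.278 to 0.289) of that in IL-1a TNFa C1q EV+MAPS and 0.289 (0.283 to 0.294) of that in IL-4 C1q EV+MAPS. These are comparisons of single libraries, so no test was made. Over all cells the MAPS library had the larger share of cycling cells, 4.51% against 1.54%, 1.59% and 1.32%. With the gate read on cells thinned to 1000 UMIs, this share was 2.06% against 0.741%, 0.682% and 0.673%. In microglia the shares were 1.54%, 0.615%, 0.419% and 0.211% before thinning. After thinning they were 0.276%, 0.229%, 0.200% and 0.0584%, from 19, 11, 11 and 3 cycling cells. Neuroblasts numbered 875, 184, 173 and 228. The part of depth and class in these shares was not tested.

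Member by member, a gene was counted as lower when the MAPS library lay more than 1.5-fold under each of the 3 EV libraries. In microglia 37 of the 52 members with at least 20 UMIs there were lower, against 9.16% of 17005 genes, and 1 was higher, against 59.4%. The log2 ratio of MAPS to the median EV library was -2.39 at the median member. Over all genes that median was 1.14, since most genes took a larger share of the UMIs in the MAPS microglia, and the members therefore lay further below the typical gene than below 0. With edgeR's TMM scaling factors, which brought the median of all genes to 0.22, 48 of 52 members were lower, against 22.7% of genes, and 0 were higher, against 26.3%.

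Of the H1 genes, 4 of 5 were lower in the MAPS microglia. H1f4 stood at 15.2, 222, 231 and 239 CPM and H1f5 at 1.95, 15.0, 12.2 and 7.78 CPM, with the MAPS library under every EV library for both. The EV libraries lay close together for H1f4, and spread 1.93-fold for H1f5. H1f2 stood at 141, 118, 129 and 154 CPM, within the range of the EV libraries. Of 13 H2A genes, 10 were lower. H2ac20 stood at 1.07, 38.3, 33.3 and 36.3 CPM, the lowest ratio of the 20 members described singly, and H2ac24 at 70.7, 228, 257 and 173 CPM. H2ac18, at 20.7, 19.9, 29.5 and 25.0 CPM, and H2ac6, at 9.68, 6.25, 8.43 and 6.96 CPM, were counted neither way.

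Of 14 H2B genes, 11 were lower and 1 was higher. H2bc4 stood at 98.9, 537, 490 and 530 CPM. H2bc21, the gene counted as higher, stood at 2.71, 1.47, 0.808 and 1.44 CPM, and it was not higher with the TMM factors. H2bc6, at 7.88, 11.0, 7.74 and 8.84 CPM, overlapped the EV libraries. Of 9 H3 genes, 5 were lower, with H3c6 at 1.37, 41.1, 29.8 and 27.8 CPM, and H3c4, at 11.0, 11.9, 13.8 and 12.2 CPM, was counted neither way. Of 11 H4 genes, 7 were lower, with H4c4 at 9.63, 143, 104 and 117 CPM and H4c8 at 4.63, 47.2, 44.1 and 40.9 CPM.

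**Figure D5:**
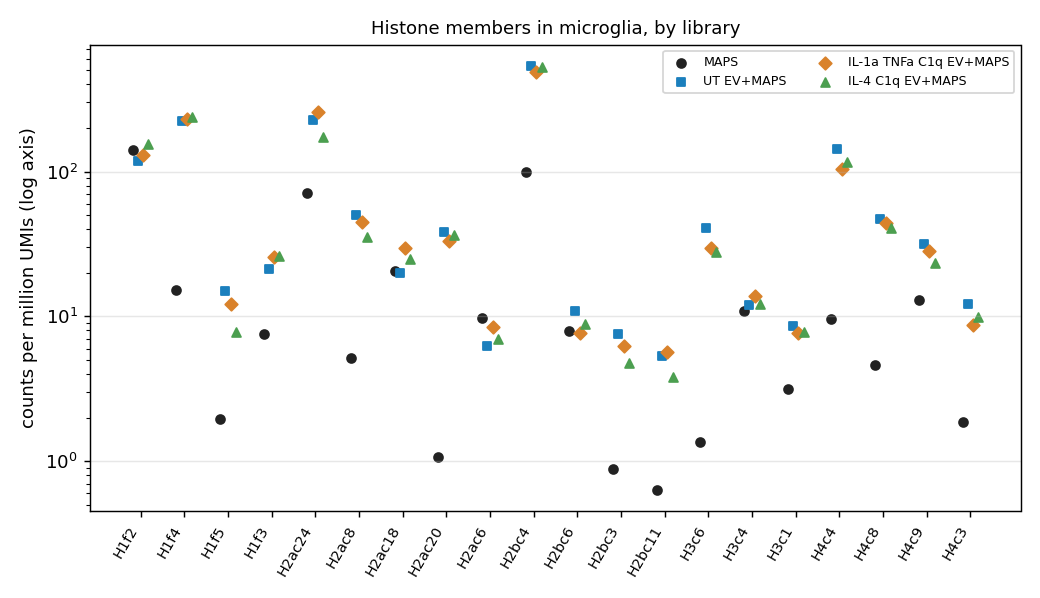
Level of the 20 members with the most UMIs in microglia (log axis, CPM), ordered by family. Each point is 1 library; the MAPS library lies far under the EV libraries for most members, and within or near their range for H1f2, H2ac18, H2ac6, H2bc6 and H3c4.

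The low level in the MAPS library was not limited to microglia or to cycling cells. In non-cycling microglia 33 of 48 members were lower, against 9.58% of genes, and 1 was higher, against 59.7%. In non-cycling neuroblasts 19 of 24 were lower (12.9%), in oligodendrocytes 13 of 22 (14.2%), in astrocytes 13 of 22 (12.2%) and in T cells 15 of 32 (13%). Endothelial cells had 14 of 20 (14.6%), choroid plexus cells 10 of 14 (5.47%), ependymal cells 9 of 14 (14.0%), B cells 7 of 14 (12%) and NK cells 6 of 12 (13.4%). Cells thinned to 1000 UMIs gave 29 of 37 in microglia, against 10.3% of genes. At that depth a UMI of any member was found in 30.5%, 72.5%, 72.5% and 72.4% of microglia (72.8%, 93.7%, 93.7% and 93.0% before thinning, at medians of 4593, 2767, 2425 and 2504.5 UMIs). In endothelial cells, a class with low levels, the thinned shares were 34.2%, 61.2%, 60.3% and 65.4% (70.5%, 78.5%, 82.9% and 84.1% before thinning, at medians of 3305.5, 1932, 2002.5 and 1938.5 UMIs).

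Other properties moved with the MAPS library as well, and their part in the histone difference was not tested. Genes with short transcripts were more often lower in the MAPS microglia: 36.4% of 1309 genes with a longest transcript over 500 and up to 1000 bases were lower, 23.9% of 547 genes with one up to 500 bases, and 2.07% of 5466 genes with one over 4000 bases. The measured members had a median transcript length of 534 bases. Some histone genes outside the symbol rule were lower too. H3f3b stood at 2350, 5631, 5373 and 5890 CPM, H3f3a at 519, 984, 971 and 963 CPM and H2az1 at 278, 780, 795 and 630 CPM. The others of that list are not given here, and 9.16% of all genes were lower. Slbp stood at 74.1, 60.3, 51.0 and 48.7 CPM, and Malat1, a nuclear RNA, at 20319, 15581, 12664 and 14680 CPM.

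The members were also divided by the end of the annotated transcript. For the counts that follow, 9.16% of all 17005 genes were lower in the MAPS microglia and 59.4% were higher. Of 19 members whose transcript ends within 100 bases after the stem-loop, 11 were lower in the MAPS microglia, 4 were neither and 4 had too few UMIs. Of 16 members whose transcript runs on further, 9 were lower and 7 neither, H1f2, H2ac6, H2bc6 and H3c4 among the latter. Of 22 members with no such letters in the transcript, 17 were lower, 1 was higher, 3 were neither and 1 had too few UMIs. The median log2 ratios of MAPS to the median EV library were -2.66, -1.45 and -2.62. The median log2 differences between cycling and non-cycling cells were 4.32, 1.79 and 3.94 in the same order. Members that run on thus had the smallest median size in both, and no test was made of that difference. The group without the letters mixes short annotated transcripts, such as H2bc15 at 381 bases, with longer ones, such as H2bc4 at 1156 bases. The short ones may stop before the stem-loop, so this group is one of annotation and need not share an RNA end.

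The 3 EV libraries differed less from one another. The microglial sum in IL-4 C1q EV+MAPS was 0.936 (0.920 to 0.952) of that in UT EV+MAPS, and that in IL-1a TNFa C1q EV+MAPS was 0.954 (0.938 to 0.970) of it, a ratio that turned to 1.07 with the TMM factors. In microglia 12 of 44 members were more than 1.5-fold lower in IL-4 C1q EV+MAPS than in UT EV+MAPS, against 6.90% of genes, and 1 was higher, against 4.14%. In IL-1a TNFa C1q EV+MAPS 10 of 44 were lower than in UT EV+MAPS, against 10.3%, and 0 were higher, against 3.21%. Between IL-4 C1q EV+MAPS and IL-1a TNFa C1q EV+MAPS, 4 of 41 were lower (4.51%) and 5 higher (9.05%). H1f5 was at 15.0 CPM in UT EV+MAPS and 7.78 CPM in IL-4 C1q EV+MAPS, while H1f4 differed by 1.07-fold between the highest and the lowest EV library. Cycling cells made up 0.615% of the microglia in UT EV+MAPS, 0.419% in IL-1a TNFa C1q EV+MAPS and 0.211% in IL-4 C1q EV+MAPS. The part of cycling cells in these microglial differences was not tested. The comparisons of these libraries share samples and were not tested.

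The make-up of the histone RNA differed between the libraries as well. H2B genes made up 21.2%, 34.1%, 33.2% and 37.7% of the members' UMIs, H2A genes 40.7%, 28.7%, 29.4% and 22.9%, H1 genes 27.3%, 20.0%, 21.2% and 22.5%, H4 genes 7.45%, 13.6%, 13.1% and 13.8%, and H3 genes 3.36%, 3.73%, 3.21% and 3.12%. The H2A share was thus largest and the H2B and H4 shares smallest in the MAPS library. H1f2 alone made up 21.2% of the members' UMIs there, at 164, 101, 111 and 132 CPM over all cells. The family shares are over all cells too, and the MAPS library had the larger share of cycling cells. Of its 18183 UMIs of H2ac24, 13642 lay in the 273 cells that met both cycle thresholds. In non-cycling cells H2ac24 stood at 57.5, 129, 148 and 121 CPM, of 512, 1365, 1356 and 1462 CPM for the summed members. The part of cycling cells in these shares was not tested.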

How the data were processed

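Counts were used as the authors deposited them: UMI counts per gene and barcode from 4 libraries of the 10x 3′ v3 assay. Per the file headers they came from Cell Ranger 8.0.1, while version 7.0.0 and the build GRCm39 stand in the submitters' processing notes; the treatment of multi-mapped reads is not given in the sources used here. Barcodes under 500 UMIs, under 300 genes or over 20% mitochondrial UMIs were left out, and doublets called with scrublet (scanpy 1.11.5; 3.64% to 5.29% per library) were removed. Cells took the class of which at least 3 of 6 markers had a UMI and no other class had as many; 5.14% to 18.6% stayed ungated. UMIs were summed per library, class and state and scaled to 1000000 (CPM).

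States and classes were tested with edgeR 4.0.16 (quasi-likelihood, TMM, library as block, Benjamini-Hochberg over all genes, adjusted p under 0.05), with DESeq2 1.42.0 as an alternative. The 4 libraries, which differ in treatment, served as replicates of a state difference, and the adjusted p-values measure only the spread between them. The fits were tested on simulated counts. Log2 changes of 1 were recovered for 35% of changed genes in all cells, 16.3% in microglia and 57.5% between phases. For changes of 2 these were 88.7%, 74% and 100%. A member that was not called can therefore still differ, above all in microglia. Members with at least 500 UMIs, at most 20, are described singly. The members, lists and rules were chosen with earlier results of these data known.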

Additional observations from a re-analysis of the deposited data

Results flagged for a closer look

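Some ratios of cycling to non-cycling cells lay on opposite sides of 1 in the libraries, with 95% counting intervals that did not reach 1. H1f2 in neuroblasts was at 0.479 (0.421 to 0.543) in the MAPS library and at 1.38 (1.06 to 1.81) in IL-4 C1q EV+MAPS. H2ac6 in neuroblasts was at 0.692 (0.501 to 0.954) in the MAPS library and at 2.56 (1.11 to 6.26) in IL-4 C1q EV+MAPS. H1f2 in T cells was at 0.674 (0.552 to 0.817) in the MAPS library, at 1.83 (1.05 to 3.01) in UT EV+MAPS, at 1.71 (1.30 to 2.23) in IL-1a TNFa C1q EV+MAPS and at 2.34 (1.62 to 3.31) in IL-4 C1q EV+MAPS. The differences between libraries were not tested, since each group had 1 library.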

How the results depend on the processing

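The libraries carry the same replicate number, and each library gave both states, so the library was the block of the fits. With no replicate block, 29 members were called higher and 0 lower in cycling cells, 2 and 0 in microglia, 0 lower in S-like cells, and 52 calls by class were lower. Leaving out 1 library at a time gave 42 to 48 higher and 0 to 1 lower in all cells, 9 to 14 higher and 0 to 2 lower in microglia, 19 to 26 lower in S-like cells, and 125 to 147 higher and 103 to 119 lower calls by class. With no filter on low counts, 2 members were lower in microglia and 38 in S-like cells. In microglia the lower calls numbered 0 with the stricter gate, 2 with doublets kept and 3 with microglia of all 4 libraries, a setting chosen after seeing the data. With the gate read on thinned cells 1 member was lower in S-like cells; that gate was not run in microglia, where no library kept 20 cycling cells.

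The summed microglial ratio of MAPS to the EV libraries, in the order of the report, was 0.222, 0.228 and 0.237 in thinned cells, 0.312, 0.320 and 0.342 without H2bc4, 0.257, 0.269 and 0.275 with the stricter class gate, and 0.149, 0.139 and 0.153 with TMM factors. The ratio of IL-4 C1q EV+MAPS to UT EV+MAPS was 0.912 without H2bc4 and 0.978 with TMM factors. That of IL-1a TNFa C1q EV+MAPS to UT EV+MAPS was 0.975 in thinned cells, 0.974 without H2bc4 and, reversed, 1.07 with TMM factors. That of IL-4 C1q EV+MAPS to IL-1a TNFa C1q EV+MAPS was 0.960, 0.936 and 0.911 in the same order.

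Signs turned for these log2 differences, and the cause was not tested. In all cells H2ac18 was at -0.047 with no filter, -0.058 with the stricter gate and -0.0081 to 0.13 on leaving out 1 library. In microglia H3c1 was at -0.35 with no replicate block, -0.0085 with doublets and -0.10 with all 4 libraries; H4c8 was at -0.032 with no filter, -0.30 with no replicate block and -0.50 with the stricter gate. H3c4 was at -0.13 with no replicate block and H4c3 at 0.038 with the stricter gate. Leaving out 1 library gave -0.030 to 0.15 for H3c1, -0.11 to 0.14 for H4c8, -0.25 to 0.34 for H3c4 and -0.22 to 1.27 for H2ac6. In S-like against G2M-like cells H2ac18 was at -0.056 with no replicate block, -0.35 with the stricter gate, -0.71 in thinned cells and -0.27 to 0.39 on leaving out 1 library, and H1f5 at 0.056 in thinned cells. Depth limits the rarer members: of 57 measured, 35 passed the filter in microglia and 32 in the comparison of phases.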
